A study of Homo sapiens with 4 samples.

Results

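The interferon-stimulated genes described here are ISG15, IFI6, IFI27, IFI44, IFI44L, IFIT1, IFIT3, MX1 and OAS1. They were chosen by name, and their values are those of every array probe whose accession is a RefSeq transcript of 1 of these 9 genes. Under that rule 8 of the 9 genes had a probe, of 20503 genes with a named probe in all. Each of the 8 had 1 probe, printed as 1 spot on each array, and the probe carried a spot free of outlier marks on all 4 arrays. IFI27 was not analysed here, since none of the accessions was matched to it.

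All samples were labelled as MCF-10A, a non-tumorigenic human mammary epithelial line, treated with 10 µM of a hydrocarbon-stapled peptide. RNA was taken 24 h and 48 h after treatment, and the conditions carry the labels stapled-peptide 24 h, non-specific stapled-peptide 24 h, stapled-peptide 48 h and non-specific stapled-peptide 48 h. The arrays addressed whether such a peptide changes gene expression in normal breast cells apart from its intended target. Each condition was measured on 1 single-colour Agilent array, and all 4 arrays were on 1 slide. The labels do not say which numbered peptide of the study each name stands for, and the treatment field calls the non-specific cells control, so values are given by label. An untreated sample was not analysed here. Without replicate arrays no test between conditions was possible and no p-value is given, and precision is limited by the number of arrays.

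Interferons are secreted cytokines that cells release when nucleic acid sensors detect a virus. They bind paired receptors at the cell surface, the kinases JAK1 and TYK2 phosphorylate STAT proteins, among them STAT2, and these join IRF9 in a complex that binds the interferon-stimulated response element in the promoters of its target genes. The products of these genes block steps of viral replication, and many epithelial cells transcribe them at a basal level without infection.

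Values are log2 of the background-subtracted spot signal after quantile normalisation over the 4 arrays, and levels are compared between arrays within a gene, never between genes. A spot was taken as measured where the scanner software marked it as well above background. Where a gene was measured on only 1 of the arrays compared, the dim signal was replaced by the lowest signal called well above background on its own array where it fell short of that, and the difference is given as a bound (at least). On the non-specific stapled-peptide 48 h array this lowest signal was 3.57. A gene was counted as past the threshold when its difference was at least 2-fold. On the 4 arrays, 62.5 to 65.7% of spots were well above background, 0 spots were saturated, and spots of the probes printed 5 times or more had a median SD of 0.07 to 0.08 on the log2 scale. That SD speaks to spots of 1 array only, not to separate cultures.

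The non-specific stapled-peptide 48 h array stood apart from the others before any gene was singled out. Over probes well above background on at least 1 array of a pair, the Pearson correlation was 0.976 to 0.978 among the other 3 arrays and 0.799 to 0.807 between each of them and this array. The labelled cell type was checked against its markers. All 12 markers of basal mammary epithelium, among them the keratins KRT5 and KRT14, were well above background on the other 3 arrays, where the log2 of their summed signal was 17.35 to 17.41. On the non-specific stapled-peptide 48 h array it was 9.42, and KRT5 had a log2 signal of 5.02 against 14.54 to 14.65 elsewhere. The markers of that array thus go against its labelled cell line, and it is called by its label only; whether its RNA came from MCF-10A cells was not tested. Comparisons with that array are therefore given apart from the comparisons without it, namely the peptides at 24 h and the times with stapled-peptide.

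The promoters of the members are shown first, because these genes are grouped by the response element they are known to share. Whether the element has a part in any difference between the arrays was not tested. RefSeq promoters (GRCh38.p14, 250 bases before to 50 bases after a start) were at hand for all 9 genes, and the array design itself used an older build, so these positions belong to RefSeq and not to the probes. The letters GAAANNGAAA, the core of the response element, were searched on both strands, and matches may overlap each other. They were found in 1255 of 35116 promoters (3.57%). Counted by gene, where any promoter of a gene may match, they were found in 8 of the 9 genes, all but OAS1. The share by gene was 4.04% of 13206 genes with a promoter and a value at 48 h. For OAS1 the form with 1 base fewer between its GAAA parts, GAAANGAAA, was looked for after the longer form gave no match. This shorter form was found in 3.12% of all promoters and in 3.64% of the 13206 genes. It can overlap the longer form, and 4 of the 9 genes held it. Where a gene had several promoters, that with the most matches is shown, and among equals that with the lowest start.

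The stretches below run 5′ to 3′ on the strand of the gene, with matches in capitals; a match that starts with TTTC lies on the opposite strand. They are chr1:1013374-1013409 and, on the minus strand, chr1:27672266-27672358, then chr1:78649761-78649790, chr1:78620274-78620394, chr10:89392497-89392539, chr10:89327831-89327894, chr21:41420559-41420588 and chr12:112906935-112906963 on the plus strand, as ISG15 is.
ISG15: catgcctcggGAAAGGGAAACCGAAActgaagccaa
IFI6: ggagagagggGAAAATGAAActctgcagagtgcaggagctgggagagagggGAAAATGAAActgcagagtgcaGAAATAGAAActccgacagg
IFI44: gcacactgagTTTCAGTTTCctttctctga
IFI44L: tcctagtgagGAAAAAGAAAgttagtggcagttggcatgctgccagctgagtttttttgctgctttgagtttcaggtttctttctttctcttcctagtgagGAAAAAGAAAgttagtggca
IFIT1: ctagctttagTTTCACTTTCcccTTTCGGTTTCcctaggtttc
IFIT3: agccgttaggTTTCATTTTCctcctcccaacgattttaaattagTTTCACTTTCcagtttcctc
MX1: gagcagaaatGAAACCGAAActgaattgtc
OAS1: cccttctgagGAAACGAAAccaacagcag

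ISG15 held 2 overlapping matches, which began 113 and 107 bases before the start. IFI6 held 3 matches, at 156, 115 and 93 bases before the start. IFI44L held 2, at 164 and 73 bases, and both had the same letters. In IFIT1 and IFIT3, which neighbour each other on chromosome 10, all matches lay on the opposite strand, at 116 and 103 bases in IFIT1 and at 156 and 122 bases in IFIT3. IFI44 had 1 match on the opposite strand at 18 bases, and IFI27, which has no value here, had matches at 108 and 95 bases. The match of MX1 began 11 bases after the start, inside the transcribed part. A match is a run of letters and not a bound factor, and no binding was measured in these cells.

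**Figure D1:**
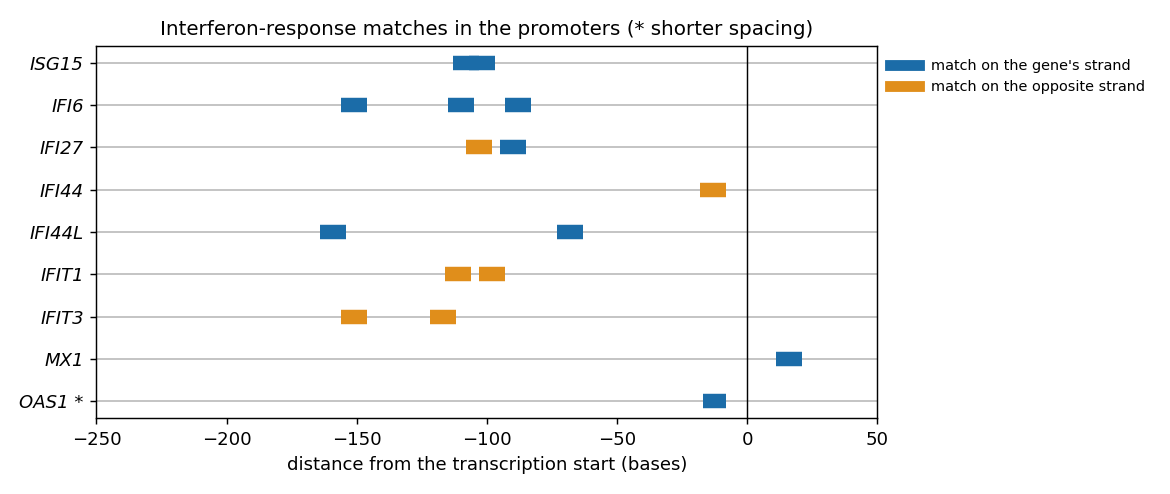
Matches to the response element core in the promoters of the 9 genes, plotted by distance in bases from the transcription start, with the gene's strand in blue and the opposite strand in orange. Of the 9 genes, 8 had a match to the longer form, most of them between 164 and 73 bases before the start, and OAS1 (asterisk) had the shorter form 17 bases before it.

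Among ubiquitin-like and membrane-associated products, ISG15 encodes a ubiquitin-like protein that is conjugated to other proteins in interferon-treated cells. The ISG15 probe read 12.11 (log2 signal) with stapled-peptide and 11.56 with the non-specific peptide at 24 h, and 11.82 and 10.93 in the same order at 48 h. All 4 arrays were well above background, with the non-specific stapled-peptide 48 h array lowest. IFI6, a small membrane protein of mitochondria and endoplasmic reticulum that limits flavivirus replication, had 10.98 and 10.62 at 24 h and 10.69 and 6.75 at 48 h. Here the first 3 values were close together and the last was far lower, though still well above background.

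IFI44 and IFI44L are paralogous neighbours on chromosome 1 that are widely used in blood interferon signatures. IFI44 read 9.58 and 9.50 (log2 signal) at 24 h and 9.49 at 48 h with stapled-peptide, and 1.85, not well above background, on the non-specific stapled-peptide 48 h array. IFI44L had 11.12, 10.94 and 10.90 on the same 3 arrays and 3.67 on the last, where it too was dim. Both genes were thus measured on 3 arrays and not well above background on the same array.

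IFIT1 and IFIT3 belong to the tetratricopeptide family that binds viral RNA, and IFIT3 stabilises IFIT1. IFIT1 read 10.21 and 9.95 (log2 signal) at 24 h and 10.07 and 6.41 at 48 h, with stapled-peptide given first at each time. IFIT3 had 9.62 and 9.39 at 24 h and 9.49 and 4.39 at 48 h. Both remained well above background on all 4 arrays, with the non-specific stapled-peptide 48 h value far below the others.

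MX1 encodes a dynamin-like GTPase that traps viral nucleocapsids, and OAS1 makes the oligoadenylates that activate RNase L. MX1 read 8.27 and 7.63 (log2 signal) at 24 h and 8.03 and 2.03 at 48 h. OAS1 had 6.61 and 6.03 at 24 h and 6.47 and 2.74 at 48 h. For both the non-specific stapled-peptide 48 h spot was not well above background, and at 24 h the non-specific value was the lower.

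**Figure D2:**
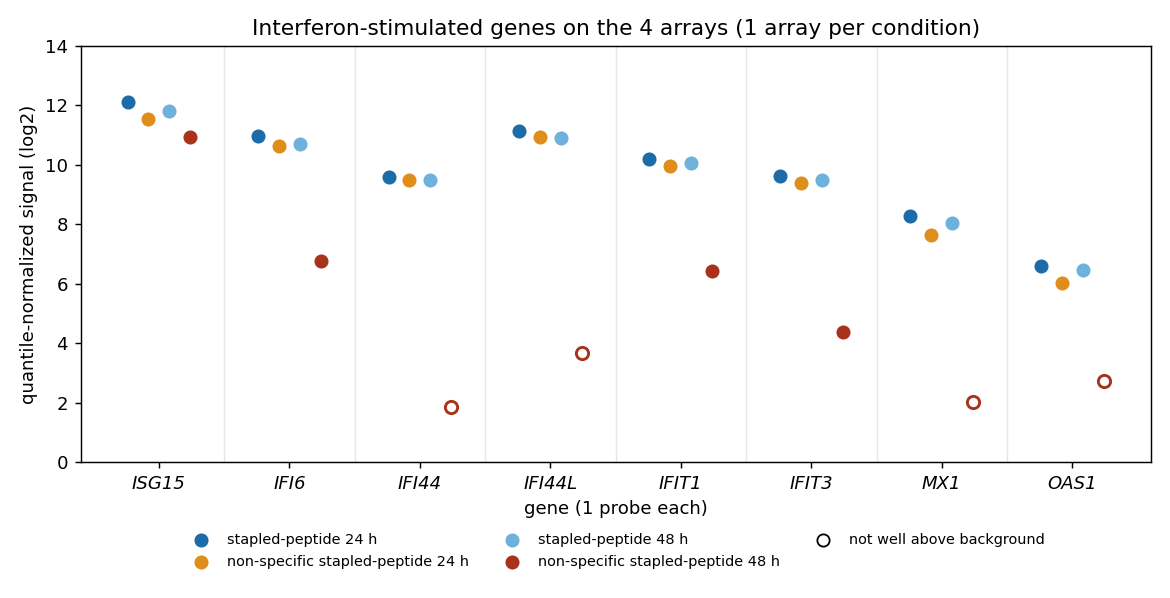
Log2 quantile-normalised signal of the 8 genes (1 probe each) on the 4 arrays, 1 point per array, with open circles for spots not well above background. The first 3 arrays of each gene lie within 0.65 of each other, and the non-specific stapled-peptide 48 h array is lowest for all 8 genes.

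For all 8 genes the highest value was on the stapled-peptide 24 h array and the lowest on the non-specific stapled-peptide 48 h array. Among 14842 genes well above background on the other 3 arrays, 18.7% had this order. For 6 of the 8 genes the full order was stapled-peptide 24 h, stapled-peptide 48 h, non-specific stapled-peptide 24 h and non-specific stapled-peptide 48 h, which 9.8% of the same genes had. The exceptions were IFI44 and IFI44L, whose middle values, 9.50 against 9.49 and 10.94 against 10.90, differed by less than the SD between spots of 1 array. The span over the first 3 arrays was smallest for IFI44 (0.09) and largest for MX1 (0.65). The lowest of these 3 values lay 0.63 above the last for ISG15, against a span of 0.55, so that ISG15 had the least separation.

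All 8 genes were lower with the non-specific peptide at 24 h, by less than 2-fold. The count past 2-fold was 0 of 8, where 1.04% of 16228 genes were lower and 0.838% higher past that threshold. The median log2 difference of the 8 genes was −0.31, against 0.01 over all genes, and 47.8% of all genes were lower by any amount. MX1 had the largest difference, −0.65 or 1.57-fold, followed by OAS1 with −0.58 and ISG15 with −0.55. Of all genes, 2.54% were as low or lower than MX1, 3.16% than OAS1 and 3.42% than ISG15. The other 5 genes differed by less. IFI6 had −0.36, IFIT1 −0.25, IFIT3 −0.23, IFI44L −0.18 and IFI44 −0.08. The SD of the differences of all genes was 0.34, which only MX1, OAS1, ISG15 and IFI6 passed in size. With the normexp background correction the order changed, with ISG15 at −0.54, MX1 at −0.52, IFI6 at −0.35 and OAS1 at −0.33. The scanner software gave each of these spots an error of 10.0 to 11.1% of its signal, and how these differences compare with the spread between cultures was not tested.

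With stapled-peptide the 8 genes were slightly lower at 48 h than at 24 h. The count past 2-fold was again 0 of 8, where 1.13% of 16138 genes were lower and 0.923% higher past it. The median log2 difference was −0.18, against 0.00 over all genes, and the range was −0.29 for IFI6 and for ISG15 to −0.09 for IFI44. MX1 had −0.25, IFI44L −0.22, OAS1 −0.14, and IFIT1 and IFIT3 −0.13 and −0.14. All 8 were below 0, as were 49.6% of all genes, and none exceeded the SD of 0.34 over all genes. This comparison shares the stapled-peptide 24 h array with the peptides at 24 h, and all 8 genes were highest on that array.

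At 48 h, 7 of the 8 genes were more than 2-fold lower with non-specific stapled-peptide than with stapled-peptide, and 6 were more than 10-fold lower. Of 17112 genes, 19.8% were lower and 21.2% higher past 2-fold, and 3.92% were lower past 10-fold. The median log2 difference of the 8 genes was −4.20, against 0.03 over all genes. IFI44L was at least 150-fold lower (−7.23) and IFI44 at least 60.9-fold lower (−5.93). Both are in the gene selection that the study made on these same arrays, so they are not independent of it; of the other 6 genes 5 were past 2-fold, with a median of −3.80. IFIT3 was 34.3-fold lower (−5.10), MX1 at least 22.0-fold (−4.46), IFI6 15.3-fold (−3.94) and IFIT1 12.6-fold (−3.66). OAS1 was at least 7.46-fold lower (−2.90). ISG15 was the exception with 1.85-fold (−0.89), a difference that 22.3% of all genes reached or passed in the same direction. The IFI44 pair thus differed most and ISG15 least. With scaling to the 75th percentile in place of quantile normalisation, ISG15 passed 2-fold as well (−1.02). The count was then 8 of 8, where 22.8% of all genes were lower past 2-fold. With the normexp background correction the median was −3.06, with 7 of 8 genes past 2-fold, where 13.4% of all genes were lower past it. IFI44L was then at −4.85 and IFI44 at −3.37. These were then the only 2 of the 8 genes lower past 10-fold, against 6 without that correction, and IFI6 (−3.23), IFIT3 (−3.13), IFIT1 (−2.99) and MX1 (−2.29) did not reach it. The share of all genes past 10-fold with that correction was not counted.

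The same array enters the comparison of 48 h with 24 h under non-specific stapled-peptide, so the values of the 2 comparisons are not independent and are given side by side only. There 7 of the 8 genes were lower past 2-fold and 6 past 10-fold, where 20.1% and 3.91% of 17297 genes were. The median was −3.96. IFI44L was at least 154-fold lower, IFI44 at least 61.2-fold, IFIT3 32.0-fold, MX1 at least 16.7-fold, IFI6 14.6-fold and IFIT1 11.6-fold. OAS1 was at least 5.52-fold lower, and ISG15 was 1.54-fold lower (−0.63). With the normexp correction 7 genes were again past 2-fold, where 13.1% of all genes were lower past it. Only 2 were past 10-fold (share of all genes not counted), IFI44L (−4.88) and IFI44 (−3.42). The median was −2.93, and MX1 and OAS1 had −1.92 and −1.02.

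**Figure D3:**
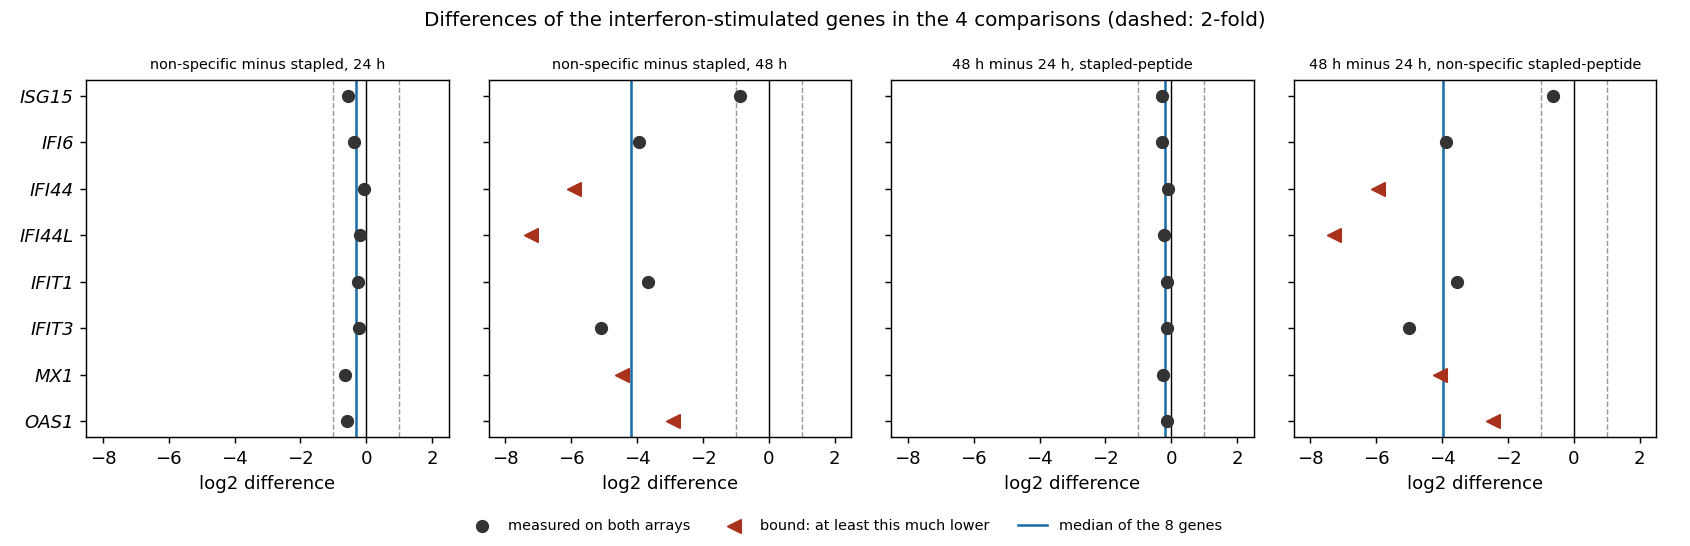
Log2 differences of the 8 genes in the 4 comparisons, with filled circles where both arrays were well above background, triangles for bounds, dashed lines at 2-fold and a blue line at the median of the 8 genes. Without the non-specific stapled-peptide 48 h array (24 h, and stapled-peptide over time) all differences lie between −0.65 and −0.08, and with it 7 of the 8 genes lie between −7.27 and −2.46, with ISG15 apart.

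Beside these values at 48 h stand those of the cell markers. On the non-specific stapled-peptide 48 h array all 12 basal markers were lower past 2-fold, where 19.8% of all genes were, with a median of −7.67. The smallest of these differences was that of TP63, −1.01, which was −0.43 with the normexp correction and then not past 2-fold. Of 8 genes listed as markers of an embryonic kidney line, 3 or 4 were well above background on the other arrays and 5 on this one, and the log2 of their summed signal was 9.62 to 9.72 and 15.46. LIN28B and UCHL1, both dim on the other 3 arrays, were at least 8.98 and at least 10.36 higher on the log2 scale. Of the 7 genes of this list with a value, 5 were higher and 0 lower past 2-fold, where 21.2% and 19.8% of all genes were. PAX2 and L1CAM, dim on this array, had bounds of −0.59 and −0.58. Another probe of PAX2 was at least 3.89 higher and another of L1CAM at least 0.11 higher, so their probes disagree. So do those of HOXA9, which is among the 5 higher genes with 2.88. Its other probe, well above background on every array, differed by 0.03. The luminal list had 7 of 8 genes well above background on every array, with a log2 summed signal of 14.90 to 14.98 on the other 3 arrays and 12.69 on this one. That sum rests on the keratins KRT18 (−2.34) and KRT8 (−2.79), while FOXA1 was higher by 1.31 and KRT19 by 0.94, and the median log2 signal of the list was 6.24 to 6.34 on the other arrays and 6.71 on this one. Of 7 leukocyte markers with a probe, 3 and 4 were well above background, with 9.58 to 9.60 and 8.30. Of 7 fibroblast markers, 4 and 3 were, with 14.85 to 14.97 and 7.56, of which DCN made up most on the other arrays (14.84 to 14.96). The part of these marker differences in the lower signals of the interferon-stimulated genes was not tested, and in a bulk sample fewer cells of a type, less RNA per cell and RNA of other cells than those labelled cannot be told apart. In the 2 comparisons without that array, 0 of the 12 basal markers passed 2-fold.

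Other genes of the interferon system came from lists of known members. For their counts past 2-fold, 1.04% of all genes were lower and 0.838% higher between the peptides at 24 h. With the normexp correction, 13.4% of all genes were lower and 14.3% higher at 48 h. The ligands were near the limit of the arrays. Of 10 ligand genes with a probe, 3 or 4 were well above background on any array, and IFNB1, the beta interferon that starts most responses, and IFNG, the interferon of T cells and natural killer cells, were dim on all 4. IFNE, an interferon of mucosal epithelium, had 5.14 and 5.06 at 24 h and 5.11 and 3.91 at 48 h, a difference of −1.20 at 48 h, which was −0.32 with the normexp correction. IFNK, an interferon of keratinocytes, had a bound of −0.46, and IFNL2 and IFNL1, lambda interferons, had 0.62 and a bound of 0.04. The lambda interferon genes are near-identical copies whose probes may share signal.

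All 6 receptor genes were measured on every array, and at 24 h 0 of 6 passed 2-fold. At 48 h 4 were lower and 1 was higher past 2-fold, where 19.8% and 21.2% of all genes were. With the normexp correction 3 were lower and 1 was higher. IFNAR1, a chain of the receptor for type I interferons, differed by −1.60 and its partner IFNAR2 by 0.42. The other probes of IFNAR2 differed by 0.23 and −0.25. IL10RB, shared by the receptors of lambda interferons and of IL-10 family cytokines, differed by −1.74, whereas IFNLR1, the specific chain for lambda interferons, differed by 2.41. Another probe of IFNLR1 was higher with non-specific stapled-peptide by 2.42 at 24 h and by at least 0.85 at 48 h, so its probes disagree.

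Of the 6 kinases and transcription factor subunits downstream of the receptors, 0 passed 2-fold at 24 h. At 48 h 5 were lower past it, where 19.8% of all genes were, with a median of −2.37. STAT2 read 13.35 and 13.25 (log2 signal) at 24 h and 13.48 and 10.63 at 48 h. The differences at 48 h were −2.84 for STAT2 and −2.55 for IRF9, both lower by over 2-fold. The kinase TYK2 differed by 0.02. With the normexp correction 4 of the 6 were lower past 2-fold, with a median of −1.45. At 24 h, STAT2 and IRF9 differed by −0.10 each.

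Of the 7 interferon regulatory factors, 4 were lower and 1 was higher past 2-fold at 48 h, where 19.8% and 21.2% of all genes were. IRF7, the factor that amplifies type I interferon production and is itself induced by interferon, had 10.50 and 10.18 at 24 h and 10.30 and 6.36 at 48 h, a difference of −3.94. IRF5 differed by −3.83 and IRF1, a factor induced by interferon gamma, by −2.11. IRF8, a factor of blood cells, was dim on the other 3 arrays and at least 2.04 higher on the log2 scale. With the normexp correction 3 of the 7 were lower and 0 higher past 2-fold, IRF8 differed by 0.66, and the median of the list was −0.73 in place of −2.11.

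Of 12 nucleic acid sensors and adaptors, 8 were lower and 1 was higher past 2-fold at 48 h, where 19.8% and 21.2% of all genes were. The median was −2.69, and 0 of 11 passed 2-fold at 24 h. STING1, the adaptor of cytosolic DNA sensing, had 12.22 and 12.15 at 24 h and 12.20 and 5.40 at 48 h, a difference of −6.79. TLR3, an endosomal receptor for double-stranded RNA, had a bound of −4.97. Both are in the study's own selection, without which 6 of 10 genes were lower past 2-fold. The cytosolic RNA sensors IFIH1 and RIGI differed by −2.51 and −1.39, the other probe of RIGI by −2.62. ZBP1, a sensor of Z-form nucleic acids, was dim on the other 3 arrays and at least 1.29 higher. With the normexp correction 8 of the 12 were again lower past 2-fold but 0 were higher, ZBP1 differed by 0.34, and the median was −1.21.

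The list of 40 other interferon-stimulated genes shares IFIH1 with the sensor list, so IFIH1 enters the counts of both. The list had values for 38 genes at each time between the peptides. At 24 h 1 was higher and 0 were lower past 2-fold, with a median of −0.04 and 26 of 38 below 0. At 48 h 32 were lower and 1 was higher, where 19.8% and 21.2% of all genes were. The median was −2.98, and 18 were lower past 10-fold, where 3.92% of all genes were. With the normexp correction 28 were lower past 2-fold, where 13.4% of all genes were, and the median was −1.82. Then 7 were lower past 10-fold, for which the share of all genes was not counted. At 24 h, where 0.068% of all genes were then higher past 2-fold, 0 of the 38 were. In the study's own selection are 5 of these genes, and of the other 33 genes 27 were lower past 2-fold. The highest of the first 3 arrays was stapled-peptide 24 h and the lowest of all 4 was non-specific stapled-peptide 48 h for 21 of the 37 genes measured on the first 3, or 56.8%, against 18.7% of all genes. IFI16, a nuclear DNA sensor, differed by −6.45 at 48 h, IFITM3, which blocks entry of enveloped viruses, by −6.34, and IFIT2, the neighbour of IFIT3, had a bound of −5.75. The other probe of IFIT2 had a bound of −2.43. IFITM3 had 15.84 and 15.80 at 24 h and 15.82 and 9.48 at 48 h; the IFITM genes are close copies and their probes may share signal. HERC5, the ligase that attaches ISG15 to its targets, was higher, with 4.75 and 4.81 at 24 h and 4.63 and 7.49 at 48 h (2.86), and LAMP3 differed by 0.86. The probes of OAS2, a relative of OAS1, disagree at 24 h, where the brightest differed by −0.21 and another, dim with the non-specific peptide (6.84 and 3.18), had a bound of −3.06.

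Of 5 negative regulators with a value, 0 passed 2-fold at 24 h. At 48 h 3 were lower and 1 was higher past it, where 19.8% and 21.2% of all genes were. The median was −2.80, and −1.13 with the normexp correction. SOCS3, an inhibitor of JAK kinases, differed by −3.38, and the phosphatase gene PTPN6 had a bound of −3.21. USP18, the protease that removes ISG15 from proteins and dampens receptor signalling, had 8.21 and 7.87 at 24 h and 8.11 and 10.00 at 48 h, a difference of 1.89. USP18 has a near-identical copy, so this value is uncertain.

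**Figure D4:**
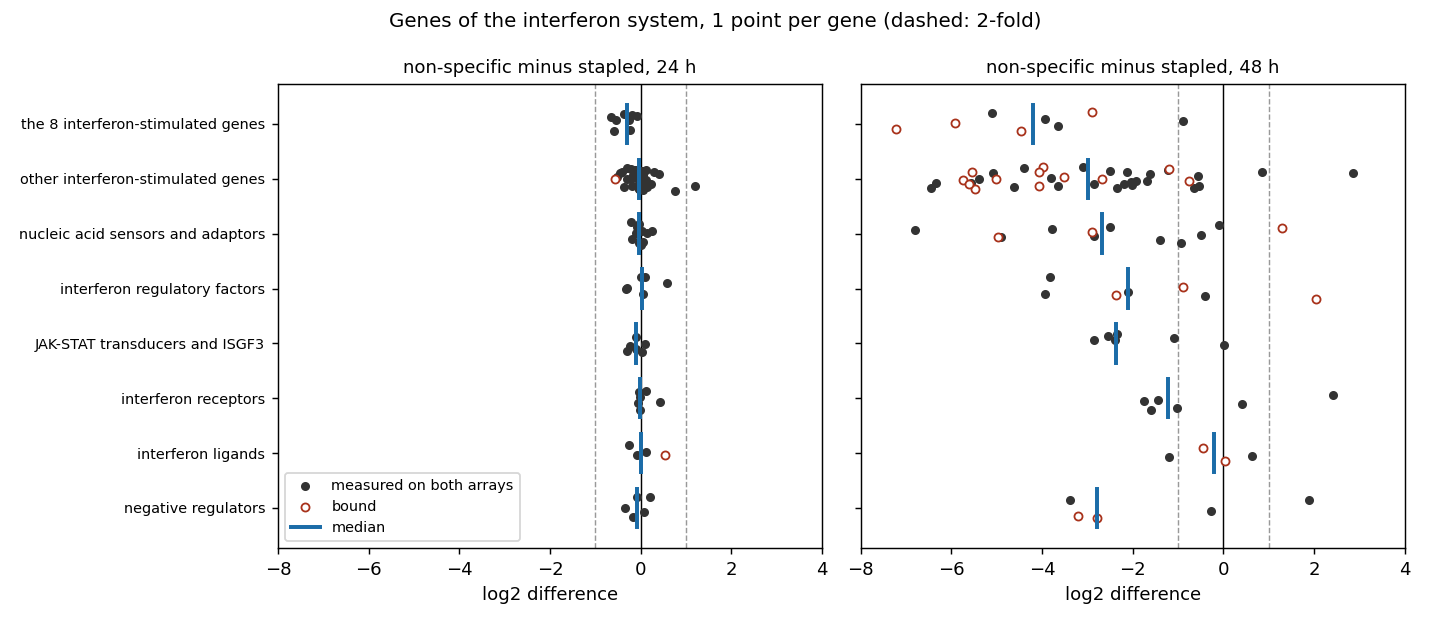
Log2 differences between the peptides at 24 h (left) and 48 h (right) for the genes of each list, 1 point per gene, with open circles for bounds, blue bars for list medians and dashed lines at 2-fold. At 24 h the list medians lie between −0.31 and 0.03, and at 48 h between −4.20 and −0.21, with the 8 interferon-stimulated genes at the low end of both.

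The response element core was also set beside the arrays for genes that are not members. At least 1 promoter held it for 22 of 32 other interferon-stimulated genes with a full promoter (68.8%), against 4.04% of 13206 genes with a value at 48 h and a promoter. Among non-members with a match, 27.1% of 527 genes were lower and 15.4% higher past 2-fold at 48 h, and among those without a match 19.1% of 12671 were lower and 21.1% higher. The medians were −0.22 and 0.04. At 24 h, 1.39% of 502 genes with a match and 0.888% of 12048 without were lower past 2-fold, with medians of −0.01 and 0.01. Genes with a match include the listed interferon-stimulated genes.

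The genes most like the members in pattern were sought by the Euclidean distance of the mean-centred log2 values over the 4 arrays from the median of the 8 genes, which was 1.31, 0.998, 1.14 and −3.42 in the order stapled-peptide 24 h, non-specific stapled-peptide 24 h, stapled-peptide 48 h and non-specific stapled-peptide 48 h. The 5 nearest were KLRC3 (0.08), a natural killer cell receptor gene, ANXA2P3 (0.10), an annexin pseudogene, PCDHB11 (0.13), a protocadherin, EPS8L2 (0.14), an actin regulator, and SPINT1 (0.15), a protease inhibitor of epithelia. KLRC3 had 8.46, 8.25, 8.33 and 3.74 in that order of arrays. On the last array the signals of KLRC3, ANXA2P3, SPINT1 and 4 of the 8 members were not well above background. The distances thus rest in part on dim signals. None of the 5 is on the lists of interferon-stimulated genes, and the distance is over 4 arrays, of which 1 stands apart. The probes of KLRC3, ANXA2P3 and PCDHB11 may share signal with near copies.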

How the data were processed

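RNA labelled as that of MCF-10A cells was measured on 4 single-colour arrays, 1 per peptide and time; the markers on the non-specific stapled-peptide 48 h array go against this label, and samples are grouped by label throughout. The deposited files hold spot intensities that the authors extracted with Agilent Feature Extraction, version 10.7.1.1 in the file headers and 9.5 in the submitters' processing notes; these are background-subtracted and were not normalised between arrays. The study states quantile normalisation over all chips, which was applied here. Control spots and outlier-marked spots were left out, log2 signals were averaged over a probe's spots, and 50590 of 50599 probes had a spot on every array. Unversioned RefSeq accessions named 28174 probes. A gene with several probes was represented by its brightest one, judged by mean log2 signal. No test was possible; folds of at least 2 were counted, with 10 as an alternative. Other settings tried were 75th-percentile scaling, no normalisation, normexp (limma 3.58.1 in R 4.3.3, offset 50), the handling of dim probes and of outlier-marked spots, the combined table of the series and the mean over probes. On simulated data with 50590 probes for the comparison of the peptides at 48 h, 100 of 100 probes with an 8-fold change were called, and 1 of 100 with a 1.4-fold change. The simulation changed only a few bright probes and marked every probe as well above background. It thus checks the calculation only, and does not cover dim genes, bounds or an array that differs as widely as the real one. Python 3.11.15, numpy 2.4.6, pandas 2.3.3 and matplotlib 3.10.9 were used. The 9 genes and all lists were chosen with earlier results of these data known. All members are named; of other genes, the 2 largest differences in each direction at 48 h per list, preset genes of the pathway (1 of them is not reported here) and the 5 of most similar pattern are named. KRT14, TP63, IFNB1, IFNG, DCN, OAS2, PAX2, L1CAM, HOXA9, KRT8, KRT18, KRT19 and FOXA1 were added after their values were seen. So were the other probes of IFIT2, IFNAR2, IFNLR1, RIGI, PAX2, L1CAM and HOXA9.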

Additional observations from a re-analysis of the deposited data

Results flagged for a closer look

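CMPK2, a mitochondrial nucleotide kinase gene induced by interferon, lay on opposite sides of 0 at the 2 times. At 24 h it read 6.69 (log2 signal) under stapled-peptide and 7.88 under the non-specific peptide, and at 48 h 6.25 and 4.63 in the same order. The difference was thus 1.20 at 24 h, the only value past 2-fold among the 38 other interferon-stimulated genes at that time, and −1.61 at 48 h. With the normexp background correction it was 0.60 at 24 h and −0.67 at 48 h. At 24 h 0 of the 38 genes were then higher past 2-fold, where 0.068% of all genes were. With 1 array per condition the difference between the times was not tested, and the value at 48 h rests on the non-specific stapled-peptide array that stands apart.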

How the results depend on the processing

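The median differences of the 8 genes at 24 h and over time with stapled-peptide stayed below 0 under every alternative tried, from −0.34 to −0.28 and from −0.42 to −0.14, and 0 genes passed 2-fold in either. The lowest value over time came without normalisation, where the median of all genes moved to −0.23 in that comparison and to 0.26 between the peptides at 48 h. Scaling to the 75th percentile moved it to −0.12 for the times with non-specific stapled-peptide. With the normexp correction the median was −3.06 between the peptides at 48 h and −2.93 over time with non-specific stapled-peptide. With a threshold of 10-fold beside it, a pair of settings chosen after seeing the data, 2 genes were lower in each. The share of all genes was not counted for that pair. Without a bound for dim probes the median over time with non-specific stapled-peptide was −4.43. With only genes well above background on both arrays, 4 of the 8 had a value, and the median at 48 h was −3.80. In each of these comparisons 3 of them were past 2-fold, where 18.6% and 18.7% of all genes were lower past it. Of 264 values of single genes under alternatives, 243 moved by less than the SD of all differences at 24 h, and 0 changed sign. The other 21 moved by more, all in comparisons with the non-specific stapled-peptide 48 h array, and the cause was not tested. Many of the 264 could hardly move. With 1 probe and 1 unmarked spot per gene, averaging over probes, keeping outlier-marked spots and the combined table return nearly the same signals. Where no gene was dim, the handling of dim probes changes nothing either. The count of 243 is therefore no measure of robustness. Quantile normalisation over 3 arrays gives no value for the comparisons with the array left out. Each gene rested on 1 spot per array, and 4 of the 8 were not well above background on the array that stands apart, so the size of their differences there is only bounded. No paired analysis was possible because each condition has 1 array.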
